A study of Mus musculus with 6 samples.

Results

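The genes described here encode the 4 classical families of axon guidance cues and their receptors: semaphorins with plexins and neuropilins, ephrins with Eph receptors, netrins and draxin with UNC5 and neogenin receptors, and Slits with Robo receptors. They were chosen by symbol from the deposited gene table, which held 46 of them among 11754 listed genes, 28 ligands and 18 receptors. RNA was measured in 3 samples of 2H11 cells kept with BMP4 for 48 h and in 3 untreated samples, and both groups had been starved beforehand. 2H11 is an established mouse line of the C3H/HeJ strain that the labels call endothelial, with an axillary lymph node source. All samples come from this 1 line. BMP4 is a secreted bone morphogenetic protein that acts through receptor serine/threonine kinases and SMAD transcription factors. The labels do not say whether the 3 samples of a group came from separate cultures, and p-values reflect the spread among them, which may be technical.

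Guidance cues were named for steering growing axons, and the same proteins position endothelial cells and their precursors in vessels and lymphatics. A ligand that is secreted (class 3 semaphorins, netrins, draxin, Slits) or tethered to a neighbouring cell (ephrins, class 4 to 6 semaphorins) binds a receptor that remodels actin and adhesion through small GTPases and kinases. Class 3 semaphorins bind a neuropilin that pairs with a plexin, ephrins and Eph receptors signal into both touching cells, and netrin-1 attracts through DCC and neogenin and repels through UNC5 receptors.

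The cells' identity was checked against marker lists. Of 15 endothelial markers 4 were listed (Eng, Flt1, Egfl7 and Plvap), with a summed level of 18.9 to 19.7 FPKM (fragments per kilobase, scaled to the size of the library) in BMP4 samples and 18.5 to 21.1 FPKM in untreated samples. Pecam1, Cdh5, Kdr, Tek, Tie1, Vwf, Cldn5, Esam, Erg, Emcn and Robo4 had no row and were not analysed here. All 12 fibroblast and mesenchyme markers were listed, with sums of 2851 to 3050 FPKM in BMP4 samples and 4043 to 4252 FPKM in untreated samples. Of these 6 fell (50%), Col3a1, Dpt, Dcn, Col1a1, Lum and Col1a2, and 4 rose (33.3%), Pdgfrb, Pdgfra, Thy1 and S100a4. Among all tested genes 14.3% fell and 13.6% rose. The 6 listed mural markers of 10 summed to 305 to 334 FPKM in BMP4 samples and 252 to 290 FPKM in untreated samples, without rows for Rgs5, Kcnj8, Abcc9 and Myh11. Neuron (2 of 10 listed), glia (2 of 8), leukocyte (3 of 10) and epithelial (1 of 8) markers each summed to under 16 FPKM in every sample. Of 3 tested endothelial markers 1 rose (Flt1) and 0 fell, and of 6 tested mural markers 3 rose and 1 fell. The 1 tested neuron marker fell, and no tested glia or leukocyte marker passed. Fewer cells of a type and less RNA per cell cannot be told apart in such bulk samples, and the part of these shifts in the values below was not tested. Of a list of 15 BMP response genes 14 were listed and 12 tested, and all 12 rose, against 13.6% of all tested genes. Testing needed a mean of at least 1 FPKM, which Bambi and Dlx5 did not reach. Untreated means of Hey1, Nog, Dlx3 and Id4 were below 1 FPKM, so these genes were tested because of their BMP4 values. FPKM summed to 252329 to 264273 over listed genes in BMP4 samples and to 256997 to 273562 in untreated samples; the number of reads is unknown, so no counting interval can be given.

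Promoters are shown for the 4 tested guidance genes that changed by at least 1 on the log2(FPKM + 1) scale. Each is 250 bases before and 50 bases after the RefSeq start on GRCm38.p6, written 5′ to 3′ on the gene's strand. By the plain ratio of group means, Efnb2 (2.77-fold higher with BMP4), Ephb2 (2.002-fold) and Sema6d (13.2-fold, below the filter for testing) also reached that size. Their windows are not shown. Draxin lay at chr4:148130649-148130948 (minus strand), Unc5b at chr10:60831532-60831831 (minus strand), Ephb6 at chr6:41605261-41605560 (plus strand) and Sema3c at chr5:17574566-17574865 (plus strand). Capitals mark matches on either strand to GGCGCC, a GC-rich motif of SMAD1 and SMAD5, or to CAGAC, the SMAD core element, which reads GTCTG on the other strand.
Draxin: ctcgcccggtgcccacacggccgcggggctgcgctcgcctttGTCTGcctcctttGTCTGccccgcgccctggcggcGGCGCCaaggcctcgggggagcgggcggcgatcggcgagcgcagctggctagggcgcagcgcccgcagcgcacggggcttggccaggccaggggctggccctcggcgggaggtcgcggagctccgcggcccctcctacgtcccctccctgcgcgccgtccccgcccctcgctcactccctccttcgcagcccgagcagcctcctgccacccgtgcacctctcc
Unc5b: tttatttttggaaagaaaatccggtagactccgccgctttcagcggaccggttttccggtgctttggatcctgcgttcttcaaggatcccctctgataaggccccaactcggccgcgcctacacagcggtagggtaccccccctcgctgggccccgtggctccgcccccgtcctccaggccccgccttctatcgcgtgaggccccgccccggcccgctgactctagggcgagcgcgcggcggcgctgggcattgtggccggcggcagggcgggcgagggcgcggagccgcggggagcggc
Ephb6: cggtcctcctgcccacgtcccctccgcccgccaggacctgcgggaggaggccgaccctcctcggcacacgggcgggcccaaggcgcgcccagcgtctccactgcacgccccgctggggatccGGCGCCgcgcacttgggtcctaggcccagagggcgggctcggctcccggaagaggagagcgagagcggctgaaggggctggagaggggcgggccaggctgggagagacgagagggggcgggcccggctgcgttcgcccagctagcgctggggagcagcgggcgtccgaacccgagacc
Sema3c: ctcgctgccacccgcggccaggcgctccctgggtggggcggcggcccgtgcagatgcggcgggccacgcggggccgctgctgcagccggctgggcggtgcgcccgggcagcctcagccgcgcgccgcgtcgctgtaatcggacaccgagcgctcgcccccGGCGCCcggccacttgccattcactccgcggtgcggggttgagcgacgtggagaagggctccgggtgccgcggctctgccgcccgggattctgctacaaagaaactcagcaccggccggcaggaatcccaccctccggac
The first 3 genes rose and Sema3c fell with BMP4. GGCGCC stood once in the Draxin, Ephb6 and Sema3c windows and not in the Unc5b window, and CAGAC stood 2 times in the Draxin window. Of 46 guidance genes 41 had a promoter entry, and 10 of these (24.4%) held GGCGCC, against 11.9% of 32851 promoters in the table. For each guidance gene 1 entry was taken, that nearest the 5′ end of its most abundant deposited transcript. The 32851 are all entries, and GC content was not matched, so the shares are not like for like and show no enrichment. CAGAC was in 23 of the 41 (56.1%), against 49.6% of all, and the palindrome GTCTAGAC, which holds no full CAGAC, in 0 of the 41, against 0.213% of all. By direction, GGCGCC was in 5 of 16 promoters of genes that rose, 1 of 6 of genes that fell and 4 of 19 others. CAGAC was in 7 of 16 promoters of genes that rose, 3 of 6 of genes that fell and 13 of 19 others. Its share was thus lowest among the genes that rose, unlike that of GGCGCC. The RefSeq start of Draxin and Unc5b was the deposited 5′ end, that of Ephb6 lay 29 bases and that of Sema3c 535 bases downstream of it. Some other windows lay far from the deposited 5′ end, such as 37064 bases downstream for Sema4d and 42980 for Sema6d. A match is a description of letters and shows no binding.

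With BMP4, more guidance genes were higher than lower, and receptors made up much of that balance. Of 43 tested genes 18 rose (41.9%) and 8 fell (18.6%), against 13.6% of all 10932 tested genes higher and 14.3% lower by limma's test at an adjusted p under 0.05. The median log2 fold change of the 43 was 0.28, against -0.00 for all tested genes, and the median absolute change was 0.34, against 0.15. A change of at least 1 on the log2(FPKM + 1) scale, with an adjusted p under 0.05, was reached by 4 (9.3%), against 2.88% of all tested genes. All 3 BMP4 samples lay above all 3 untreated samples for 21 of the 43 (48.8%), against 22.4% of tested genes, and below them for 9 (20.9%), against 23.1%. With 1 FPKM added before taking logs, fold changes of low genes are understated. After rescaling the samples to equal sums, 20 rose and 5 fell, with a median log2 fold change of 0.32, against 0.03 for all tested genes. The count of 8 that fell was 5 without BMP4 replicate 1, without BMP4 replicate 3 and without untreated replicate 2.

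The 18 receptors together held 420, 429 and 398 FPKM in BMP4 samples, against 292, 307 and 311 FPKM in untreated samples. Every BMP4 sum was above every untreated sum. Of the receptors 10 rose (55.6%), 1 fell (5.56%, Epha3) and 7 did not pass, against 13.6% higher and 14.3% lower among all tested genes. The 28 ligands together held 165, 164 and 172 FPKM in BMP4 samples, against 165, 174 and 170 FPKM in untreated samples, and these sums overlapped. Of the 25 tested ligands 8 rose (32%), 7 fell (28%) and 10 did not pass, against the same shares of all tested genes. The near-equal sums thus covered genes that moved in opposite directions. The share of ligand FPKM from Sema3c was 5.98% in BMP4 samples and 21.9% in untreated samples, and that from Draxin was 10.9% in BMP4 samples and 1.03% in untreated samples.

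**Figure D1:**
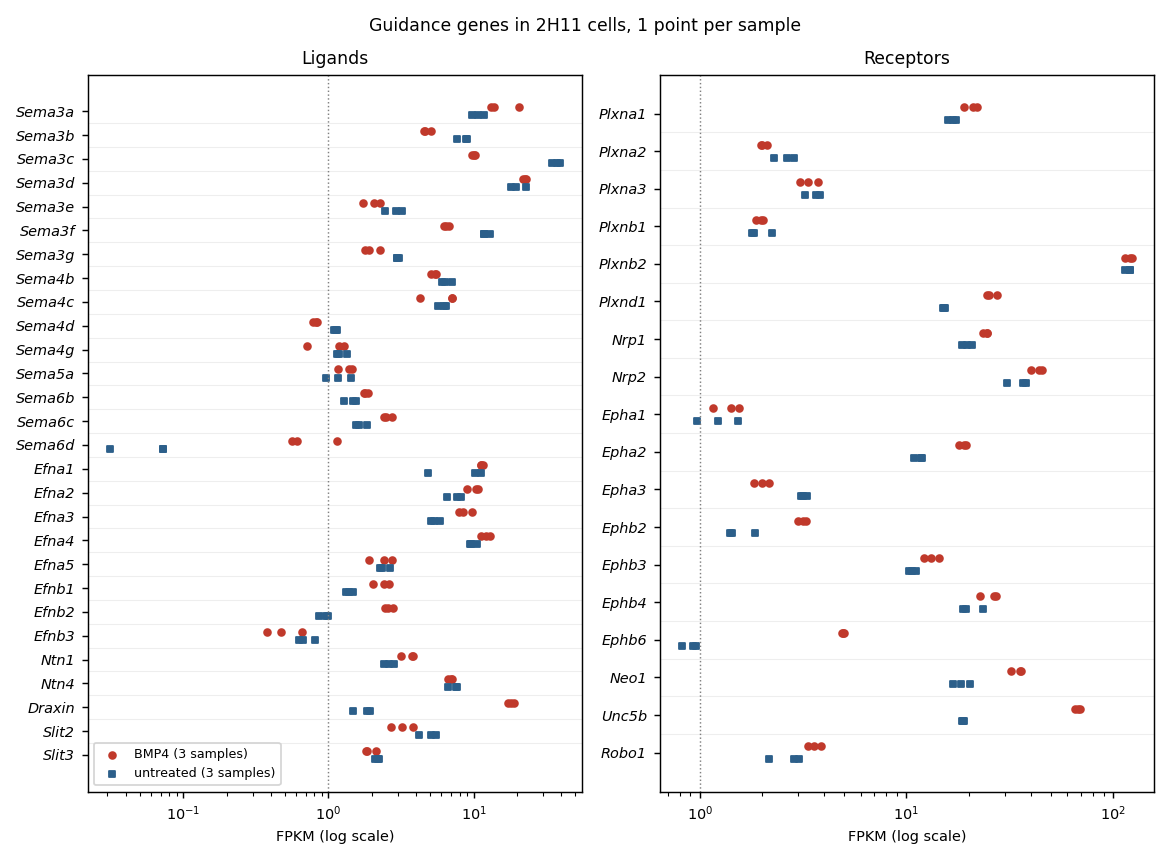
Level of each of the 46 guidance genes in FPKM on a log axis, ligands on the left and receptors on the right, with 1 point per sample (circles, 3 BMP4 samples; squares, 3 untreated samples). Dotted lines mark 1 FPKM; Plxnb2 was highest in both groups, and Draxin, Unc5b and Ephb6 stand apart to the right with BMP4 while Sema3c stands apart to the left.

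**Figure D2:**
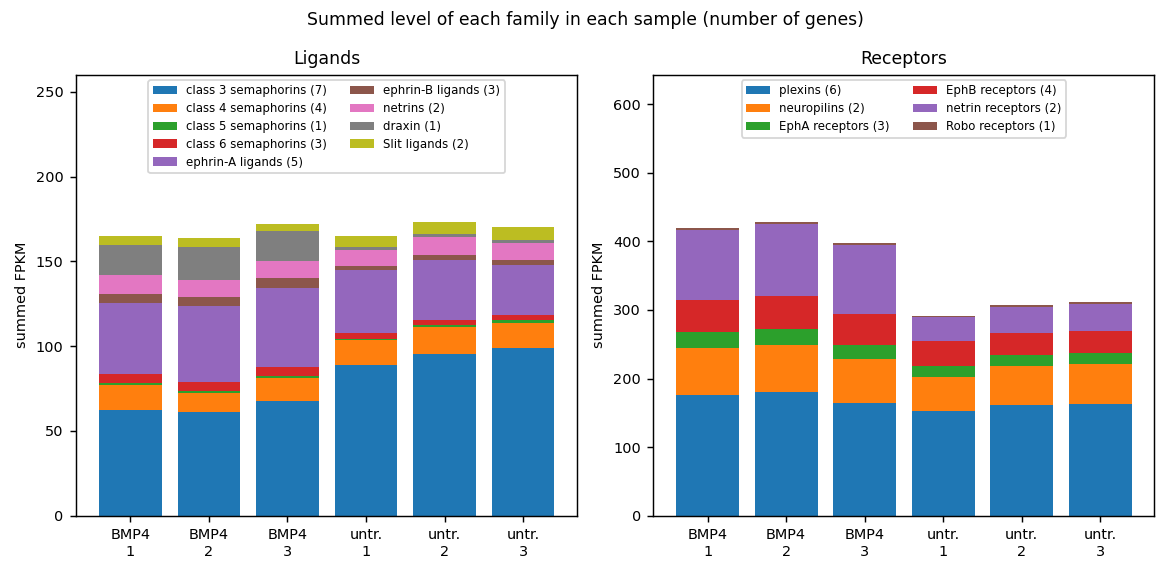
Summed FPKM of each family in each sample as stacked bars from 0, with the number of genes per family in the legend (BMP4 replicates 1 to 3, then untreated replicates 1 to 3). The receptor bars are 398 to 429 FPKM with BMP4 and 292 to 311 FPKM untreated, and netrin receptors are 99.7 to 105 FPKM with BMP4 and 35.5 to 39.0 FPKM untreated.

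Both listed netrin receptors rose. Unc5b, a repulsive netrin-1 receptor of vessels and axons, was at 65.8, 69.6 and 67.7 FPKM in BMP4 samples, against 18.7, 19.1 and 18.6 FPKM in untreated samples. The groups were far apart, and replicates within a group lay close together. Its mean was 3.60-fold higher with BMP4, a log2 difference of 1.79 (SE 0.04, limma adjusted p = 7.27e-07), and it had rank 2 among the 46 genes in BMP4 samples and rank 7 in untreated samples. Neo1 encodes neogenin, a receptor of netrins and of repulsive guidance molecules, which are BMP co-receptors. It was at 35.9, 35.6 and 32.1 FPKM in BMP4 samples, against 16.8, 18.5 and 20.4 FPKM in untreated samples, with no overlap. Its log2 fold change was 0.86 (SE 0.08, limma adjusted p = 2.67e-04). Together these receptors summed to 102 ± 2.77 FPKM in BMP4 samples and 37.4 ± 1.75 FPKM in untreated samples (SD, n = 3 each). Dcc, Unc5a, Unc5c and Unc5d, the other receptors of this group, had no row in the gene table.

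The netrin-pathway ligands were uneven. Draxin, a secreted protein that binds netrin-1 and its receptor DCC and repels axons, was at 18.2, 19.1 and 17.3 FPKM in BMP4 samples, against 1.85, 1.92 and 1.47 FPKM in untreated samples. The lowest BMP4 sample was far above the highest untreated sample. The mean was 10.4-fold higher and the log2 fold change 2.81 (SE 0.08, limma adjusted p = 1.66e-06), rank 12 of all tested genes by absolute change. By level Draxin was at percentile 73.3 of the listed genes in BMP4 samples and at percentile 14.02 in untreated samples. Ntn1, the netrin that binds neogenin and UNC5 receptors, was at 3.81, 3.17 and 3.77 FPKM in BMP4 samples, against 2.40, 2.85 and 2.60 FPKM in untreated samples. The groups did not overlap, and Ntn1 rose by 0.34 (SE 0.09, limma adjusted p = 0.0240). That call was lost without BMP4 replicate 1 (adjusted p = 0.0873), BMP4 replicate 3 (0.0712), untreated replicate 1 (0.0617) and untreated replicate 3 (0.0559). Ntn4, a laminin-related netrin of basement membranes, averaged 6.93 ± 0.238 FPKM in BMP4 samples and 7.28 ± 0.562 FPKM in untreated samples and did not pass (limma adjusted p = 0.551).

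**Figure D3:**
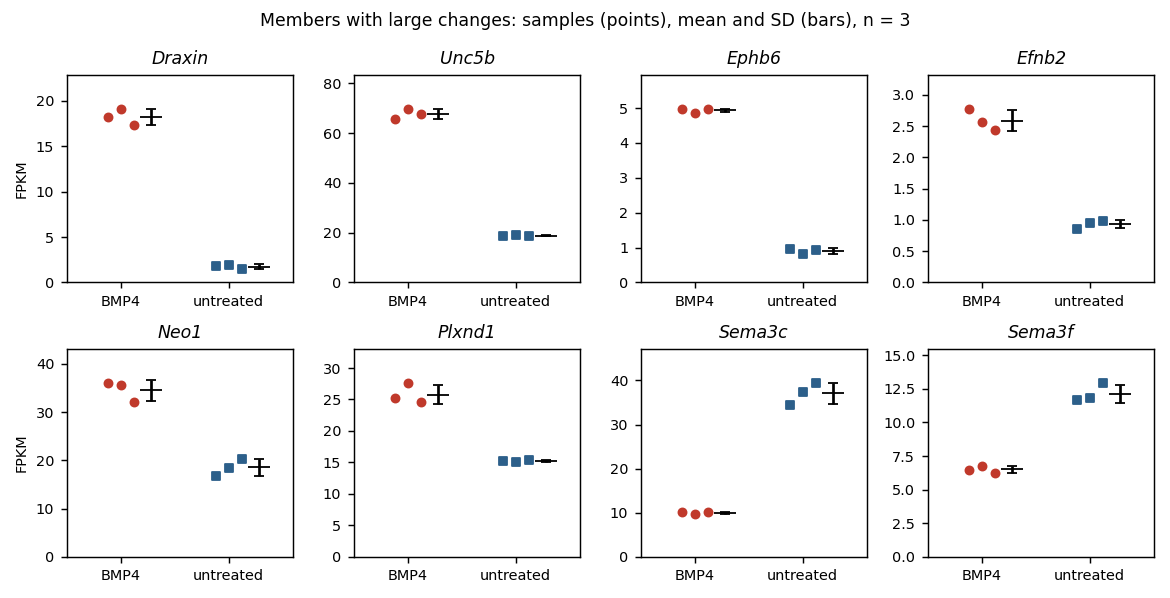
FPKM in each sample for 8 guidance genes with large changes, 3 BMP4 samples (circles) left of 3 untreated samples (squares), with the mean and SD beside them on axes that start at 0. The genes were picked for their change in these data, so the lack of overlap in every panel is no separate result. Among all tested genes, BMP4 samples lay wholly above untreated ones for 22.4% and wholly below for 23.1%. Draxin averages 18.2 FPKM with BMP4 and 1.75 FPKM untreated, and Sema3c 10.0 FPKM with BMP4 and 37.0 FPKM untreated.

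Of 7 Eph receptors 4 rose and 1 fell with BMP4, against 13.6% higher and 14.3% lower among all tested genes. Ephb6, an Eph receptor whose kinase domain is inactive, was at 4.96, 4.87 and 4.97 FPKM in BMP4 samples, against 0.962, 0.821 and 0.926 FPKM in untreated samples. It was 5.46-fold higher, with a log2 change of 1.64 (SE 0.06, limma adjusted p = 4.77e-06); its untreated mean lay below the filter of 1 FPKM, so it was tested because of its BMP4 values. Ephb2, an ephrin-B receptor kinase, was at 3.26, 3.16 and 2.98 FPKM in BMP4 samples, against 1.44, 1.40 and 1.86 FPKM in untreated samples, a log2 change of 0.69 (SE 0.09, limma adjusted p = 0.00119). Neither gene overlapped between groups. Epha2, a receptor of ephrin-A1 with roles in vessel assembly, was at 19.3, 18.9 and 18.1 FPKM in BMP4 samples, against 11.8, 11.9 and 10.95 FPKM in untreated samples. It did not overlap between groups and rose by 0.66 (SE 0.06, limma adjusted p = 1.78e-04). Epha3, which prefers ephrin-A5, was the receptor that fell. It was at 2.01, 1.82 and 2.16 FPKM in BMP4 samples, against 3.09, 3.18 and 3.29 FPKM in untreated samples, a log2 change of -0.48 (SE 0.07, limma adjusted p = 0.00238). Within the EphA group, the share of Epha3 was 9.03% in BMP4 samples and 19.9% in untreated samples.

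The remaining Eph receptors were closer to the threshold. Ephb3, another ephrin-B receptor, averaged 13.2 ± 1.10 FPKM in BMP4 samples and 10.7 ± 0.388 FPKM in untreated samples (log2 fold change 0.28, limma adjusted p = 0.0237). Without BMP4 replicate 2 (adjusted p = 0.0708), BMP4 replicate 3 (0.0619), untreated replicate 1 (0.0568) or untreated replicate 3 (0.0557) it did not pass. Ephb4, the receptor of ephrin-B2 and a marker of venous endothelium, was the most abundant Eph receptor. It was at 26.7, 27.1 and 22.8 FPKM in BMP4 samples, against 23.4, 18.8 and 19.4 FPKM in untreated samples, where untreated replicate 1 overlapped the BMP4 range. It did not pass with all samples as deposited (log2 fold change 0.30, limma adjusted p = 0.0591). It did pass without BMP4 replicate 3 (0.0367), without untreated replicate 1 (0.0169) and after rescaling to equal sums. Epha1, an ephrin-A1 receptor, averaged 1.37 ± 0.201 FPKM in BMP4 samples and 1.24 ± 0.280 FPKM in untreated samples (adjusted p = 0.596), and 6.01% of its exonic bases overlap Zyx on the opposite strand.

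Of 7 tested ephrin ligands 5 rose and 0 fell, against 13.6% higher and 14.3% lower among all tested genes. Efnb2, which encodes the transmembrane ephrin-B2 that binds Ephb4 and marks arterial endothelium, was at 2.77, 2.56 and 2.43 FPKM in BMP4 samples, against 0.857, 0.959 and 0.990 FPKM in untreated samples. The groups were apart, with a log2 change of 0.89 (SE 0.07, limma adjusted p = 1.24e-04); like Ephb6 it was tested because of its BMP4 values. Efnb1, encoding ephrin-B1, was at 2.40, 2.03 and 2.59 FPKM in BMP4 samples, against 1.32, 1.47 and 1.39 FPKM in untreated samples (log2 fold change 0.48, SE 0.08, limma adjusted p = 0.00523). Efna3, a lipid-anchored ephrin-A, was at 8.41, 7.88 and 9.72 FPKM in BMP4 samples, against 5.84, 5.11 and 5.34 FPKM in untreated samples. All its BMP4 values were above the untreated ones, and the log2 fold change was 0.59 (SE 0.09, limma adjusted p = 0.00273). Efnb3, encoding ephrin-B3, was below the filter, at 0.502 ± 0.143 FPKM in BMP4 samples and 0.703 ± 0.0969 FPKM in untreated samples, and did not pass when tested without the filter (adjusted p = 0.173).

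Efna2, another ephrin-A, was at 8.99, 10.3 and 10.7 FPKM in BMP4 samples, against 7.66, 8.13 and 6.57 FPKM in untreated samples, and rose by 0.38 (limma adjusted p = 0.0224). Its call was lost without BMP4 replicate 2 (adjusted p = 0.0784) and BMP4 replicate 3 (0.0682). Efna4, a further ephrin-A, averaged 12.1 ± 0.832 FPKM in BMP4 samples and 9.83 ± 0.616 FPKM in untreated samples (log2 fold change 0.28, limma adjusted p = 0.0257). It did not pass without BMP4 replicate 2 (0.0812), BMP4 replicate 3 (0.0757), untreated replicate 1 (0.0606) or untreated replicate 2 (0.0828). Efna1, the ephrin that binds Epha2, was at 11.2, 11.6 and 11.2 FPKM in BMP4 samples, against 11.3, 10.2 and 4.84 FPKM in untreated samples. Only untreated replicate 3 lay low, and the gene did not pass (adjusted p = 0.284). Efna5, the ephrin preferred by Epha3, averaged 2.35 ± 0.421 FPKM in BMP4 samples and 2.42 ± 0.210 FPKM in untreated samples (adjusted p = 0.842). Efna1, Efna3 and Efna4 are neighbours on chromosome 3 with gaps of 32.8 kb and 10.4 kb and no protein-coding gene between them. Exons of genes on the opposite strand cover 14.1% of the exonic bases of Efna3 and 10.5% of those of Efna4; the libraries were strand-specific, but whether the quantification used strand was not stated in the sources used here.

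**Figure D4:**
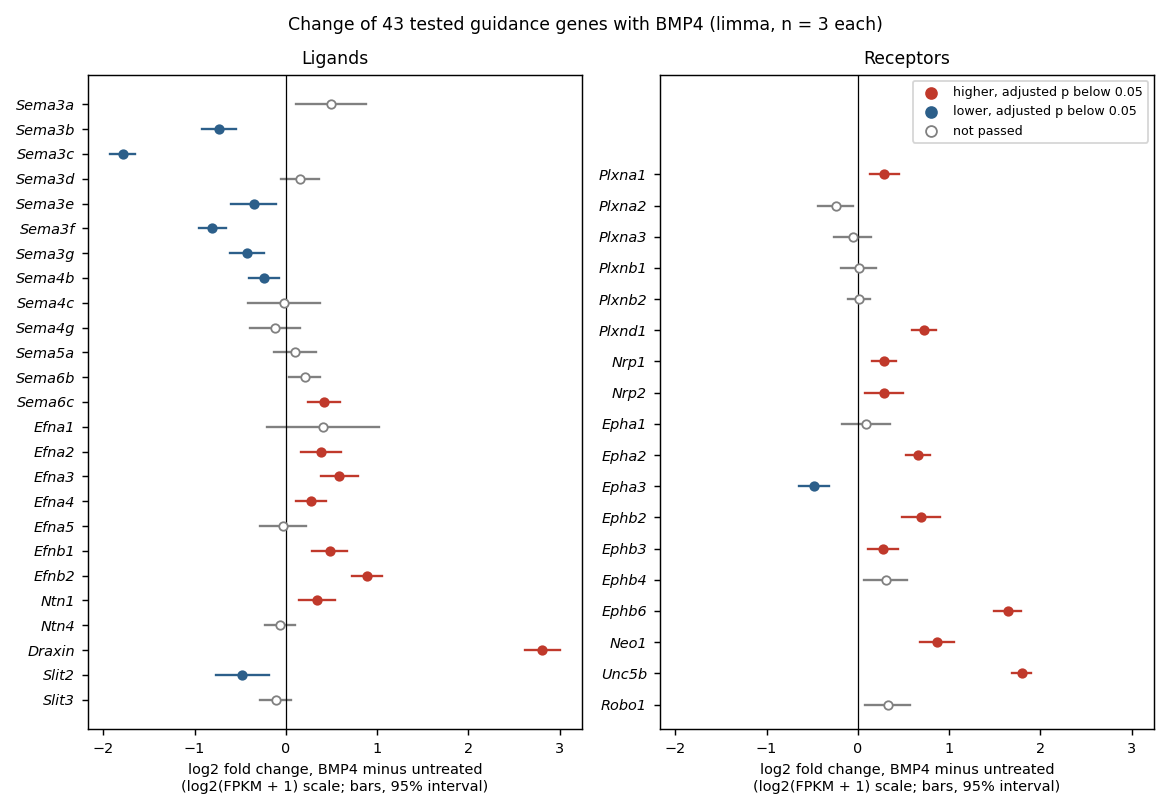
Log2 fold change, BMP4 minus untreated, of the 43 tested guidance genes on the log2(FPKM + 1) scale with limma's 95% intervals, ligands on the left and receptors on the right (n = 3 each). Filled points passed an adjusted p of 0.05 and open points did not; 5 class 3 semaphorins lie left of 0, and Draxin lies farthest right at 2.81.

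Among the class 3 semaphorins, the secreted ligands of neuropilin and plexin complexes, 5 of 7 genes fell (71.4%), 0 rose and 2 did not pass. Of all tested genes 14.3% fell and 13.6% rose. The class 3 sum was 62.4, 60.9 and 67.4 FPKM in BMP4 samples, against 89.2, 95.4 and 99.1 FPKM in untreated samples, with no overlap. Sema3c, which steers neural crest and endothelial cells through plexin and neuropilin complexes, was at 10.1, 9.79 and 10.1 FPKM in BMP4 samples, against 34.5, 37.3 and 39.3 FPKM in untreated samples. The highest BMP4 value was far below the lowest untreated one. It was 3.71-fold lower with BMP4, a log2 change of -1.79 (SE 0.06, limma adjusted p = 2.35e-06), with rank 17 among the 46 genes in BMP4 samples and rank 2 in untreated samples. Its share of the class 3 sum was 15.7% in BMP4 samples and 39.2% in untreated samples.

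Sema3f, a ligand that prefers neuropilin-2, was at 6.48, 6.79 and 6.27 FPKM in BMP4 samples, against 11.7, 11.8 and 12.9 FPKM in untreated samples. The groups were apart, and it fell by 0.81 on the log2 scale (SE 0.06, limma adjusted p = 1.10e-04). Sema3b, which binds both neuropilins, was at 4.61, 4.51 and 5.09 FPKM in BMP4 samples, against 8.91, 9.004 and 7.72 FPKM in untreated samples, a log2 change of -0.73 (SE 0.08, limma adjusted p = 5.65e-04). It was lower in every BMP4 sample than in any untreated one. Sema3b and Sema3f lie 72.3 kb apart on chromosome 9. Sema3g, another neuropilin-2 ligand, was at 2.27, 1.89 and 1.78 FPKM in BMP4 samples, against 2.97, 2.97 and 3.06 FPKM in untreated samples (log2 fold change -0.43, SE 0.08, limma adjusted p = 0.00712). Its groups did not overlap either.

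Sema3e, which binds Plxnd1 without a neuropilin, was at 2.28, 2.07 and 1.73 FPKM in BMP4 samples, against 2.44, 2.92 and 3.22 FPKM in untreated samples (log2 fold change -0.35, SE 0.10, limma adjusted p = 0.0445). Its call was near the threshold. It was lost after rescaling to equal sums (adjusted p = 0.0893) or by trimmed means (0.0507). It was also lost without BMP4 replicate 1 (0.0568), BMP4 replicate 2 (0.102), BMP4 replicate 3 (0.114), untreated replicate 2 (0.115) and untreated replicate 3 (0.110). The other class 3 genes did not pass. Sema3d, which also binds neuropilin-1, was at 23.0, 22.6 and 21.8 FPKM in BMP4 samples, against 17.97, 19.6 and 23.1 FPKM in untreated samples, which overlapped (adjusted p = 0.234, and 0.0286 without untreated replicate 3). Sema3a, the prototype repellent that binds neuropilin-1, was at 13.7, 13.2 and 20.6 FPKM in BMP4 samples, against 10.7, 11.8 and 9.81 FPKM in untreated samples. Its groups did not overlap and BMP4 replicate 3 was high (log2 fold change 0.49, SE 0.16, limma adjusted p = 0.0587); it passed after rescaling to equal sums (0.0339). Sema3d, Sema3a, Sema3e and Sema3c lie in that order on chromosome 5.

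Of 8 plexins and neuropilins, the receptor subunits for semaphorins, 4 rose and 0 fell, against 13.6% and 14.3% of all tested genes. Plxnd1, the plexin of vascular endothelium that binds Sema3e, was at 25.2, 27.5 and 24.6 FPKM in BMP4 samples, against 15.2, 15.0 and 15.4 FPKM in untreated samples. The groups did not overlap, and it rose by 0.73 (SE 0.06, limma adjusted p = 1.01e-04). Nrp1, the neuropilin that also serves VEGF-A, was at 24.5, 24.7 and 23.4 FPKM in BMP4 samples, against 18.6, 19.7 and 20.9 FPKM in untreated samples (log2 fold change 0.28, SE 0.06, limma adjusted p = 0.00970). Nrp2, the neuropilin of lymphatic endothelium, was at 45.2, 44.1 and 40.2 FPKM in BMP4 samples, against 30.9, 36.9 and 38.1 FPKM in untreated samples. BMP4 replicate 3 and untreated replicate 3 lay within a few FPKM of each other, and Nrp2 passed narrowly (log2 fold change 0.29, SE 0.09, limma adjusted p = 0.0476). It did not pass without BMP4 replicate 1 (adjusted p = 0.145), BMP4 replicate 2 (0.133), untreated replicate 1 (0.0619) or untreated replicate 2 (0.0746). Rescaling to equal sums (0.0618) or by trimmed means (0.0553) and a fit without variance trend (0.0600) also ended its call.

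Plxna1, a signalling partner of neuropilins, averaged 20.7 ± 1.55 FPKM in BMP4 samples and 16.7 ± 0.760 FPKM in untreated samples (log2 fold change 0.29, limma adjusted p = 0.0184). Its call was lost without BMP4 replicate 1 (adjusted p = 0.0686), BMP4 replicate 2 (0.0687) and untreated replicate 2 (0.0521), and 10.7% of its exonic bases overlap a gene on the opposite strand. Plxna2, of the same plexin class, averaged 2.03 ± 0.0709 FPKM in BMP4 samples and 2.60 ± 0.301 FPKM in untreated samples and did not pass (adjusted p = 0.0603), but did without untreated replicate 1 (0.0258) and without a variance trend (0.0456). Plxna3, which serves Sema3f, averaged 3.38 ± 0.346 FPKM in BMP4 samples and 3.56 ± 0.290 FPKM in untreated samples (adjusted p = 0.648). Plxnb2, a receptor of class 4 semaphorins, was the most abundant guidance gene. It was at 121.5, 123.5 and 114 FPKM in BMP4 samples, against 114, 121 and 121 FPKM in untreated samples. The groups overlapped, with a log2 fold change of 0.01 (95% interval -0.11 to 0.13), and the sign turned in some fits that left out 1 sample. Plxnb1, the Sema4d receptor, averaged 1.96 ± 0.0786 FPKM in BMP4 samples and 1.96 ± 0.249 FPKM in untreated samples (95% interval -0.18 to 0.20).

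Of 6 tested transmembrane semaphorins 1 rose and 1 fell, close to the 13.6% higher and 14.3% lower of all tested genes. Sema6c, a class 6 semaphorin, was at 2.73, 2.42 and 2.50 FPKM in BMP4 samples, against 1.83, 1.62 and 1.55 FPKM in untreated samples. The groups did not overlap, and it rose by 0.41 (SE 0.07, limma adjusted p = 0.00610). Its 1 listed transcript, Sema6c-201, did not show this rise. That transcript was at 2.10, 2.99 and 1.68 FPKM in BMP4 samples, against 2.70, 2.12 and 2.12 FPKM in untreated samples. These values overlapped, with a log2 change of -0.04 (limma adjusted p = 0.934 among transcripts). Sema4b, a class 4 semaphorin, averaged 5.33 ± 0.204 FPKM in BMP4 samples and 6.49 ± 0.502 FPKM in untreated samples and fell by 0.24 (limma adjusted p = 0.0433). That call was lost after rescaling to equal sums (adjusted p = 0.0779) and without BMP4 replicate 1 (0.109), BMP4 replicate 2 (0.138), BMP4 replicate 3 (0.0740), untreated replicate 1 (0.0675) and untreated replicate 2 (0.123). Sema6d, a Plxna1 ligand, was below the filter but apart between groups, at 0.609, 1.146 and 0.565 FPKM in BMP4 samples, against 0.0312, 0.0722 and 0.0727 FPKM in untreated samples; with no filter its adjusted p was 0.00494. Sema4d, the Plxnb1 ligand, was also below it, at 0.834, 0.820 and 0.778 FPKM in BMP4 samples, against 1.14, 1.14 and 1.09 FPKM in untreated samples, with an adjusted p of 0.0288 when no filter was set. With no filter 19 of 46 guidance genes rose and 9 fell, with a median log2 fold change of 0.24, against -0.0009 for all genes.

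The other transmembrane semaphorins did not pass. Sema6b, of class 6, averaged 1.79 ± 0.0598 FPKM in BMP4 samples and 1.43 ± 0.137 FPKM in untreated samples (adjusted p = 0.0711), and passed after rescaling to equal sums and without a variance trend (0.0450 in both). Sema4c, a Plxnb2 ligand, was at 7.05, 4.24 and 7.04 FPKM in BMP4 samples, against 5.65, 6.46 and 6.21 FPKM in untreated samples, where BMP4 replicate 2 alone was low. Sema4g, also of class 4, averaged 1.06 ± 0.2997 FPKM in BMP4 samples and 1.22 ± 0.114 FPKM in untreated samples (adjusted p = 0.481). Sema5a, which carries thrombospondin repeats, averaged 1.33 ± 0.149 FPKM in BMP4 samples and 1.18 ± 0.231 FPKM in untreated samples (adjusted p = 0.473).

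Slit ligands and their receptor were low in both groups. Slit2, the ligand of Robo receptors, was at 3.20, 3.82 and 2.69 FPKM in BMP4 samples, against 4.19, 5.05 and 5.48 FPKM in untreated samples. The groups did not overlap, and it fell by 0.48 (SE 0.12, limma adjusted p = 0.0262). It did not pass after rescaling to equal sums (adjusted p = 0.0539) or without BMP4 replicate 1 (0.0763), BMP4 replicate 3 (0.0671), untreated replicate 2 (0.0784) or untreated replicate 3 (0.0710). Slit3, another Robo ligand, averaged 1.93 ± 0.168 FPKM in BMP4 samples and 2.16 ± 0.0737 FPKM in untreated samples (adjusted p = 0.271). Robo1, a repulsive Slit receptor, was at 3.35, 3.84 and 3.58 FPKM in BMP4 samples, against 2.16, 3.02 and 2.86 FPKM in untreated samples; the groups did not overlap, but it did not pass (limma adjusted p = 0.0576). Robo2, Robo3, Robo4 and Slit1 had no row.

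Genes linked to these pathways had medians nearer to 0. Of 60 tested intracellular effectors of guidance receptors 13 rose (21.7%) and 2 fell (3.33%), against 13.6% and 14.3% of all tested genes, with a median log2 fold change of 0.08. Without BMP4 replicate 2 only 1 fell. Dpysl3, a collapsin response mediator protein that acts below semaphorins, averaged 110.0 ± 2.99 FPKM in BMP4 samples and 25.8 ± 0.790 FPKM in untreated samples, a log2 fold change of 2.05 (limma adjusted p = 6.64e-07). The next by adjusted p were the Rac activator Tiam2 (0.77), the actin-oxidising enzyme Mical2 (0.61), the small GTPase Rras (0.38) and the exchange factors Arhgef28 (0.50) and Kalrn (0.39), all higher by these log2 fold changes. The untreated mean of Kalrn was 0.752 FPKM, so it was tested because of its BMP4 values. Of 39 tested co-receptors, alternative ligands and proteases 13 rose (33.3%) and 9 fell (23.1%), against the same 13.6% and 14.3%, with a median of 0.04. Pcsk6, a proprotein convertase, averaged 5.43 ± 0.272 FPKM in BMP4 samples and 1.58 ± 0.0743 FPKM in untreated samples (log2 fold change 1.32). The next 5 by adjusted p all fell. Lrig1, a brake on receptor tyrosine kinases, had a log2 fold change of -1.53, the adenosine receptor gene Adora2b -1.38 and the Nogo receptor gene Rtn4r -1.09. Flrt3, whose product is a ligand of UNC5 receptors, had -0.98, and Figf, which encodes the neuropilin-2 ligand VEGF-D, -0.55. Rtn4r and Flrt3 averaged 0.954 and 0.514 FPKM in BMP4 samples, so they were tested because of their untreated values.

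Transcript values gave less. The transcript table held 83 transcripts of guidance genes, of which 63 were tested; 9 rose (14.3%), against 4.03% of 17213 tested transcripts, and 2 fell (3.17%), against 4.53%. The 9 were of Draxin, Unc5b, Ephb6, Efnb2, Neo1, Plxnd1, Epha2, Efna3 and Nrp1, and the 2 were Sema3c-001 and Sema3f-001. The share of a transcript in its gene changed in 0 of 33 tests by limma at an adjusted p under 0.05, against 0.238% of all 10483 share tests, and 1 had an unadjusted p under 0.05. Some splits between transcripts varied among replicates of 1 group. Sema3a-002 was at 0, 0 and 37.6 FPKM in BMP4 samples and at 1.17, 4.39 and 0 FPKM in untreated samples, so the high Sema3a value of BMP4 replicate 3 stood with 1 transcript. Slit2-002 was at 0 FPKM in every BMP4 sample and at 0, 12.2 and 0 FPKM in untreated samples, while Slit2-001 was at 7.34, 8.90 and 5.25 FPKM in BMP4 samples and at 9.94, 1.58 and 13.0 FPKM in untreated samples. These examples were chosen after their values were seen. Plxnc1, Sema4f and Unc5c were listed only there, and each of their transcripts was under 1 FPKM in every sample.

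By annotation 71 protein-coding mouse genes have a symbol that fits the rule, and 25 of these had no row in the gene table. Besides those named above they were Epha4, Epha5, Epha6, Epha7, Epha8, Epha10, Ephb1, Ntn3, Ntn5, Plxna4, Plxnb3, Plxnc1, Sema4a, Sema4f, Sema5b, Sema6a and Sema7a, and they were not analysed here. The lowest higher group mean of any listed gene was 0.502 FPKM, so the table holds only genes above about that level in at least 1 group.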

How the data were processed

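Polyadenylated RNA of 6 samples was sequenced from strand-specific libraries, per the labels' protocols. The authors deposited FPKM per gene and per transcript, per the file headers; the submitters' processing notes name GRCm38 and the tools FastQC, cutadapt, HISAT2 and StringTie, with versions, settings and strand use not given in the sources used here. Low FPKM values showed no steps of whole reads, so depth could not be recovered. Each table had 1 emptied line, which was skipped.

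Rows averaging at least 1 FPKM were tested on log2(FPKM + 1), BMP4 against untreated, with limma 3.58.1 (variance trend) in R 4.3.3 and Benjamini-Hochberg adjustment over the whole table; every adjusted p is from this test. A count test had been planned for count tables; these hold FPKM. Groups came from the labels. A transcript's share was tested as its log2(FPKM + 1) minus that of the other listed transcripts of its gene summed. Scripts were tested on simulated data. Overlaps and gene counts used GENCODE M21 and RefSeq (GRCm38.p6); motifs were searched with Python 3.11.15. Values per sample are given for guidance genes past the threshold, up to 20 by absolute change, and for those with a mean of at least 20 FPKM, and the first 6 tested genes by adjusted p are named from other lists. Genes and lists were chosen with earlier results of these data known. Alternatives were the pseudocount, filter, scaling, variance trend, a replicate block and leaving out each sample.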

Additional observations from a re-analysis of the deposited data

How the results depend on the processing

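In 17 of the 26 guidance genes that passed, direction and call were kept in every alternative run that tested them. Some of the 17, such as Ephb6 and Efnb2, averaged under 5 FPKM and were not tested with that filter. Of the 26, 9 lost the call in at least 1 run, and 5 genes that had not passed did so in at least 1. With a mean of at least 5 FPKM, which left 23 guidance genes, 4 fell, and 5 co-receptor and protease genes fell; fewer genes were tested there. After rescaling to equal sums 5 guidance genes fell, and the sign of Sema4c turned to 0.00871. Deviations of same-numbered samples from their group means correlated at -0.149, 0.05 and -0.221. These deviations sum to 0 within each group of 3, so such values can neither show nor exclude pairing by replicate number. Pairs with unlike numbers ran from -0.102 to 0.216. The highest were BMP4 replicate 3 with untreated replicate 1 (0.216) and BMP4 replicate 1 with untreated replicate 3 (0.191). Whether these samples shared a factor was not tested. With the replicate number as a block, 13 guidance genes rose and 5 fell (8 calls were lost, those of Sema3e, Sema4b, Slit2, Nrp2, Ephb3, Ntn1, Efna2 and Plxna1), and 5 guidance transcripts rose and 1 fell. Leaving out each sample gave 13 to 17 guidance genes that rose, 5 to 8 that fell, 1 to 3 effectors that fell and 7 to 8 transcripts that rose. Over these fits the log2 fold change ran from -0.13 to 0.18 for Sema4c, -0.20 to 0.00579 for Sema4g, -0.00301 to 0.18 for Epha1, -0.11 to 0.0676 for Efna5, -0.0313 to 0.0748 for Plxnb1 and -0.0152 to 0.0455 for Plxnb2, none of which passed. The cause of these shifts was not tested. Counts under alternative fits, here and above, are given without the share of all tested genes that passed the same fit. Such counts do not show whether guidance genes lost calls more often than other genes. Read depth is unknown, so the limit it sets on low genes cannot be given.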
